A study of Arabidopsis thaliana with 24 samples.

Results

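Rosettes of Arabidopsis thaliana plants carrying the mutation mil4 were compared with wild-type rosettes after a spray with water. The comparison rests on 8 of the 24 arrays of the study: the 4 titled as mil4 with water and the 4 titled as Col with water. All values below are probe-set intensities of Affymetrix ATH1 arrays, on which each gene is read by 1 or more sets of short probes.

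The wild type was Col-0, and the mutated gene is MIL4 (MILDEW-INDUCED LESIONS 4 in the title of the study). The plants of both groups were 4 weeks old, had grown at 22 °C with a 14 h photoperiod and were sprayed with water 2 days before the rosettes were collected. The other 16 arrays hold Col and mil4 sprayed with 300 µM BTH, a synthetic compound that acts like the defence hormone salicylic acid, and the mutants sid2 and mil4 sid2 sprayed with water. The titles call the arrays of a group biological replicates. Whether a replicate pools plants, and which mil4 and sid2 alleles were used, was not given in the sources used here, so p-values measure the spread between these arrays. No probe set carries the name of MIL4, so the genotype was not checked on the arrays, and ICS1, PR1, PR2 and PR5 were not analysed here.

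Salicylic acid is the hormone through which Arabidopsis leaves switch on defence against pathogens such as mildew, and most of it is made by ICS1, the gene mutated in sid2. Leaves also carry genes that answer touch, wounding or cold within minutes, among them ORA47 and STZ, whose RNA is short-lived. Leaf growth depends on wall-loosening proteins, the expansins, and on enzymes that cut and rejoin xyloglucan, the polymer that ties cellulose fibres together. The question is how mil4 plants differ when they have received neither a pathogen nor the hormone analogue.

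The arrays of the groups were alike in brightness, which the scaling of the deposited values to an equal trimmed mean largely set in advance. Median intensities ran from 154 to 162.6 in Col and from 152.1 to 158.7 in mil4, and each array had 16.3% to 17.9% of its probe sets below 16. Pearson's r between arrays was 0.966 to 0.978 within Col, 0.964 to 0.977 within mil4 and 0.949 to 0.970 between the groups. The ratio of 3′ to 5′ signal of GAPDH, a sign of RNA quality, was 0.699 to 0.966 in Col, 0.651 to 0.980 on mil4 replicates 1 to 3 and 1.65 on mil4 replicate 4. Rubisco activase (RCA), a gene of green leaf cells, lay between 20603.3 and 33216.3 on all 8 arrays, while EXPA7, a root hair gene, lay between 6.8 and 46.2.

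Of 22746 probe sets, 1684 (7.4%) differed between mil4 and Col at a limma threshold of 0.05 for adjusted p: mil4 was higher in 736 (3.24%) and lower in 948 (4.17%). The differences of 228 higher (1.0%) and 293 lower probe sets (1.29%) were at least 2-fold on the scale of log2(intensity + 16), on which all log2 fold changes below are given as mil4 minus Col. The intensities of the 4 mil4 arrays did not overlap those of the 4 Col arrays for 2664 probe sets (11.7%), and 1506 of the 1684 were among them. Of the 1557 loci with a gene symbol, 122 passed (7.84%), 50 higher (3.21%) and 72 lower (4.62%). Among the 1684, 811 have a single gene name or number in the platform annotation and 873 do not. Below, a gene on a list counts as measured only if a probe set is annotated to it alone. Genes not counted may still be read by the 8730 probe sets without a gene in the annotation. In leaf tissue that was not sorted, fewer cells of a type and less RNA per cell cannot be told apart.

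The instrument run, inferred from close hybridization times in the file headers, moved the count most. Only 1 run held arrays of both groups (Col replicate 4 and mil4 replicate 3), and with run as a block 680 probe sets passed, 550 of them among the 1684. Each of days 1, 2 and 3 held both groups, and with day as a block 1593 passed. Fitted on the 8 arrays alone, without the spread of the other 16, 956 passed.

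**Figure D1:**
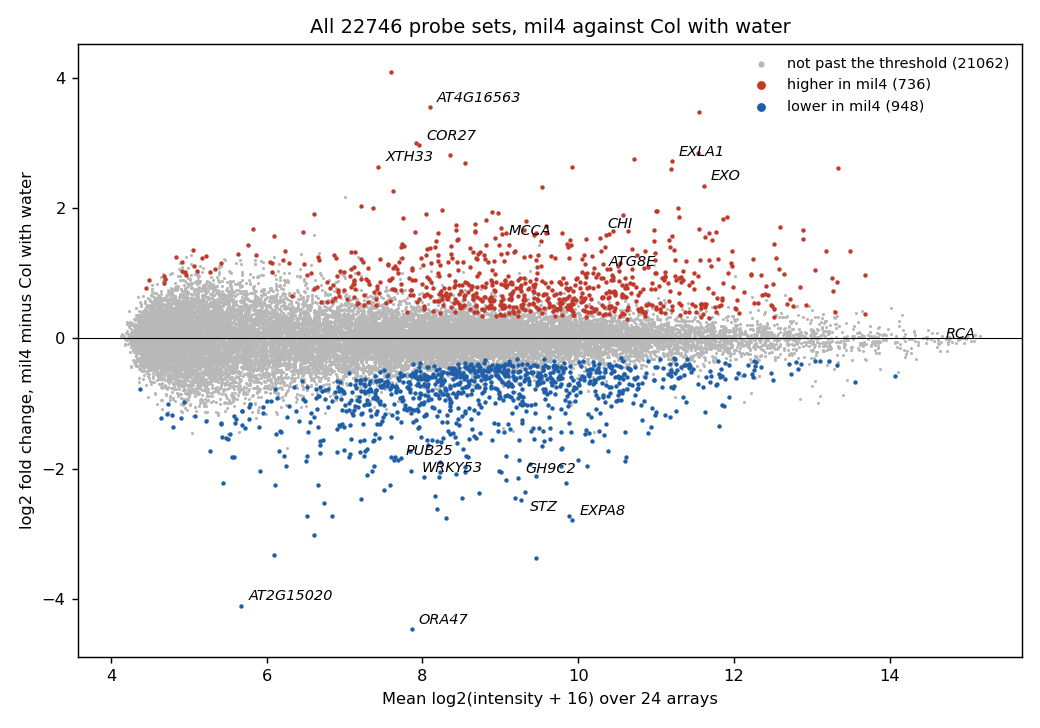
Each point is 1 of the 22746 probe sets, with its mean log2(intensity + 16) over 24 arrays on the horizontal axis and its log2 fold change, mil4 minus Col with water, on the vertical axis. Red points (736) and blue points (948) passed an adjusted p of 0.05, and ORA47, at -4.47, lies lowest.

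The list of rapid stress regulators held ORA47, the lowest log2 fold change of all probe sets. Of 48 genes on the list 5 were measured. In mil4 3 of these were lower and none was higher, where 4.62% and 3.21% of all loci with a symbol were. The median log2 fold change was -2.05, against a median of -0.00144 over all probe sets. ORA47, whose AP2/ERF protein switches on genes of jasmonate and abscisic acid synthesis, read 2131.7, 2012.7, 2247.6 and 3504.6 on the Col arrays and 78.0, 100.8, 129.7 and 74.7 on the mil4 arrays. Even the lowest Col array was far above the highest mil4 array, and the log2 fold change was -4.47 (SE 0.31, adjusted p = 2.3e-08). STZ, a zinc finger repressor gene, read 3288.7, 3362.3, 2678.7 and 2968.6 in Col and 441.8, 636.0, 302.2 and 464.3 in mil4. Its groups lay far apart, at -2.74 on the log2 scale (SE 0.29, adjusted p = 2.35e-06).

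WRKY53, which encodes a transcription factor active in leaf senescence and in defence, read 1087.8, 792.1, 735.0 and 618.2 in Col and 148.6, 203.5, 174.1 and 194.2 in mil4. All mil4 arrays were below all Col arrays, at -2.05 (SE 0.23, adjusted p = 6.47e-06). Neither of the other measured members passed, and WRKY6, a senescence regulator gene, was at 0.23 (adjusted p = 0.705), with its 4 mil4 arrays (111.0 to 146.6) inside the Col range (83.1 to 152.3). WRKY53 was also the only 1 of 6 measured WRKY genes to pass, where 7.84% of all loci with a symbol did. The fall was not seen in the other lists of rapidly answering genes. Of 20 genes of calcium and touch response 5 were measured and 0 passed (median -0.26). Of 7 measured calmodulin-like genes, some of them on both lists, 0 passed (median 0.02).

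A pair of ubiquitin ligase genes was lower as well. PUB25 and PUB26 encode U-box ligases that are known to mark the immune kinase BIK1 for breakdown. PUB25 read 530.8, 576.7, 587.9 and 615.9 in Col and 156.2, 144.1, 196.3 and 100.6 in mil4, or -1.88 on the log2 scale (SE 0.22, adjusted p = 1.11e-05). PUB26 read 988.2, 880.5, 933.9 and 634.7 in Col and 366.3, 341.9, 493.2 and 202.3 in mil4, or -1.30 (SE 0.21, adjusted p = 0.000271). Neither gene's groups overlapped, though with run as a block PUB26 missed the threshold (adjusted p = 0.141). Of 14 measured U-box and RING ligase genes only 1 other passed, where 7.84% of all loci with a symbol did. ATL8, a RING ligase gene, was higher in mil4, at 297.1 to 475.9 against 187.6 to 277.1 (log2 fold change 0.77, SE 0.16, adjusted p = 0.00341). Its adjusted p was 0.0501 in the fit of the 8 arrays alone and 0.059 with run as a block. PUB24, of the same branch of immune ligases, was at -0.26 (adjusted p = 0.498) with overlapping groups. BIK1 itself was at -0.29 (adjusted p = 0.275), its arrays reading 455.5 to 560.7 in mil4 and 554.6 to 688.4 in Col.

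**Figure D2:**
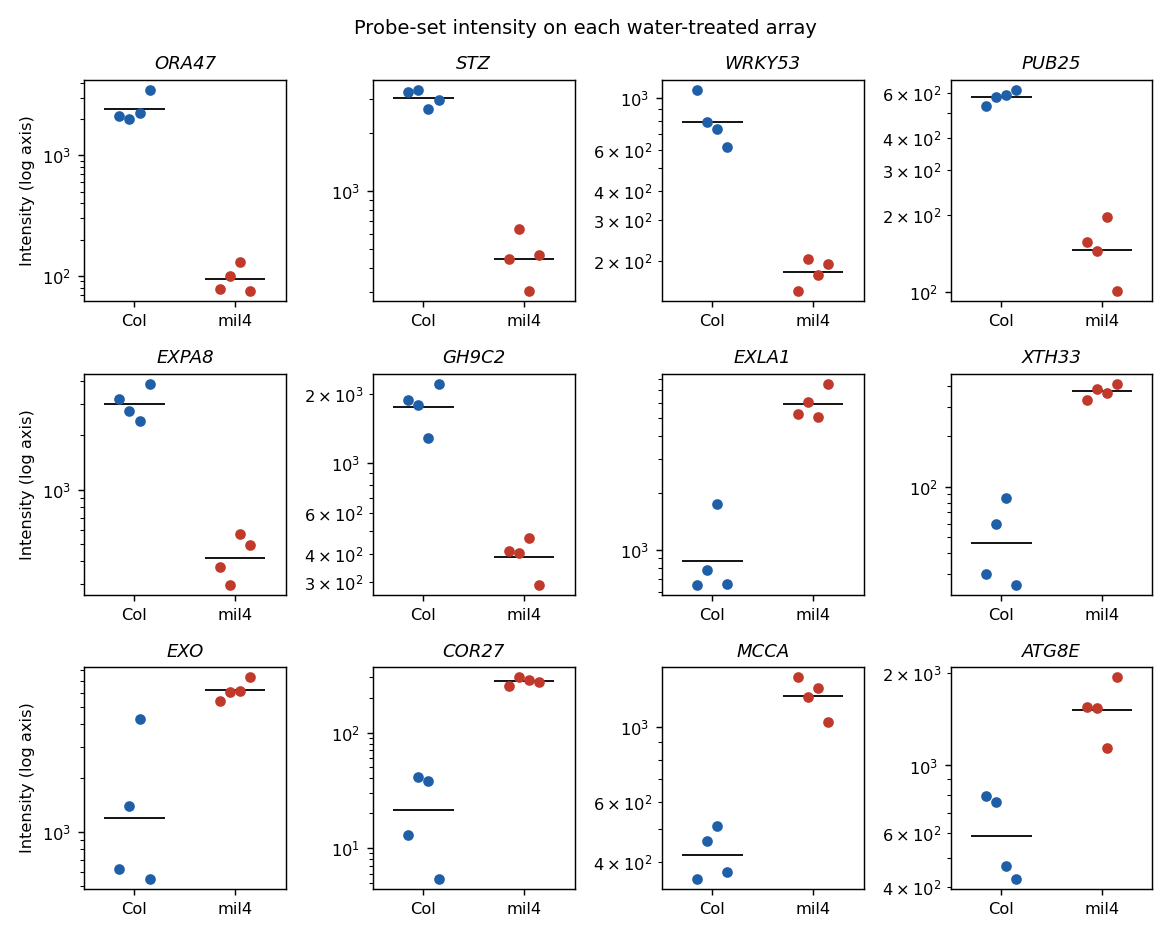
Intensity (log axis) of 12 genes on each of the 4 Col (blue) and 4 mil4 (red) arrays with water, with a line at each group's mean of log2(intensity + 16), turned back to intensity. The groups of all 12 genes are apart, and for EXO the Col array at 4294.9 comes closest to the mil4 arrays.

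Genes of the cell wall changed in both directions. Of 34 expansin genes 18 were measured, and 7 passed: 5 lower and 2 higher in mil4, with a median over the family of 0.01 (7.84% of all loci with a symbol passed). The 5 lower ones are true expansins, and the 2 higher ones belong to the expansin-like A group, for which no loosening of walls has been shown.

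EXPA8, an alpha-expansin gene, read 3176.6, 2730.8, 2401.7 and 3878.2 in Col and 372.1, 295.9, 565.0 and 494.1 in mil4. Its log2 fold change was -2.79 (SE 0.25, adjusted p = 3.39e-07), the largest of the family. EXPB1, a beta-expansin gene, read 593.5, 582.3, 452.2 and 687.9 in Col and 107.4, 124.8, 144.8 and 132.5 in mil4, so that no array overlapped (log2 fold change -2.04, SE 0.37, adjusted p = 0.00095). EXPA15 and EXPB3 were lower by smaller amounts, at -0.99 (SE 0.15) and -0.97 (SE 0.17). The call of EXPA4 at -0.58 (SE 0.17, adjusted p = 0.0341) was weak: it was lost without Col replicate 2 (0.111), Col replicate 4 (0.111), mil4 replicate 2 (0.056) or mil4 replicate 4 (0.138), and with the run block (0.194).

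EXLA1 moved the other way. It read 650.3, 776.9, 1746.5 and 662.3 in Col and 5248.2, 6061.6, 5043.0 and 7557.0 in mil4, which is 2.73 on the log2 scale (SE 0.39, adjusted p = 8.43e-05). The highest Col array, replicate 3, was still below every mil4 array. EXLA2 read 155.3 to 227.4 in Col and 399.0 to 601.1 in mil4 (1.29, SE 0.24, adjusted p = 0.00145), but missed the threshold with run as a block (adjusted p = 0.124).

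Of 92 genes for xyloglucan and other wall enzymes 32 were measured. Of these 5 were higher and 3 lower, where 3.21% and 4.62% of all loci with a symbol were, and the median was 0.04. XTH33, which encodes an enzyme that cuts or rejoins xyloglucan at the cell surface, read 30.1, 59.8, 85.5 and 25.7 in Col and 329.2, 381.5, 365.1 and 413.2 in mil4. The gene was dim in Col and moderately bright on every mil4 array, a difference of 2.64 (SE 0.40, adjusted p = 0.000154). XTH16, of the same family, was higher as well, at 836.9 to 1040.6 against 357.8 to 379.4 (1.31, SE 0.19). XTH32 was lower, at 633.9 to 665.4 against 913.7 to 1171.7 (-0.70, SE 0.14, adjusted p = 0.00198, and 0.137 with run as a block). Both directions thus occurred within 1 enzyme family.

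EXO (EXORDIUM), a gene that brassinosteroids induce and that promotes leaf growth, read 624.5, 1400.9, 4294.9 and 546.7 in Col and 5402.0, 6026.8, 6174.3 and 7311.9 in mil4. Its Col arrays were spread over a wide range, and its log2 fold change of 2.35 (SE 0.43, adjusted p = 0.00095) missed the threshold in the fit of the 8 arrays alone (adjusted p = 0.0628). GH9C2, an endoglucanase gene with a cellulose-binding module, read 1895.2, 1798.1, 1287.3 and 2229.6 in Col and 410.0, 402.6, 468.0 and 290.8 in mil4, and the groups were well apart (-2.15, SE 0.20, adjusted p = 5.81e-07). GH9B8, of the same enzyme family, was at -1.17 (SE 0.22, adjusted p = 0.00122). It read 262.0 to 288.4 in Col and 110.4 to 118.6 in mil4, although with run as a block its adjusted p was 0.247.

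The list of wall enzymes also holds genes for making wall polymers. CSLA03, of the mannan synthase family, read 332.6 to 445.5 in Col and 735.9 to 1213.6 in mil4 (1.25, SE 0.24, adjusted p = 0.0016, and 0.111 with run as a block). CSLC04, which makes the xyloglucan backbone, was at 0.51 (SE 0.15, adjusted p = 0.0444), a call lost on leaving out Col replicate 2 (0.0608), 3 (0.109) or 4 (0.159) or mil4 replicate 1 (0.092), 2 (0.153) or 4 (0.0571). Its adjusted p was also above the threshold with run (0.0837), day (0.0544) or module (0.0734) as a block, with quantile normalization (0.0726) and in the fit of the 8 arrays alone (0.127).

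THE1, FER, RALFL22 and EXGT-A3 are on no list that was counted here and were picked after their values were seen, so they show nothing about wall receptors as a group. THE1 (THESEUS1), a receptor kinase gene of wall sensing, read 535.5, 453.9, 614.9 and 466.4 in Col and 1158.8, 1486.7, 1425.7 and 1695.5 in mil4. The groups did not overlap, and the log2 fold change was 1.45 (SE 0.19, adjusted p = 2.51e-05). RALFL22, which encodes a peptide of the RALF family, read 776.4 to 1242.7 in Col and 1806.3 to 2766.8 in mil4 (1.15, SE 0.20, adjusted p = 0.000725). The list of RALF-like peptides, which does not hold RALFL22, had 10 measured genes and a median of -0.01. None was higher and 1 was lower, where 3.21% and 4.62% of all loci with a symbol were. The lower gene was RALFL32 (-0.40, SE 0.10, adjusted p = 0.0186). That call was lost with the run block (0.575), in the fit of the 8 arrays alone (0.129), and without Col replicate 2 (0.0708) or mil4 replicate 1 (0.0698) or 4 (0.0516). FER (FERONIA), a receptor of such peptides, was at a small difference (0.48, SE 0.12, adjusted p = 0.0186). Its call was lost without Col replicate 1 (0.0522), Col replicate 2 (0.0727) or mil4 replicate 4 (0.0775), with the run block (0.286) and in the fit of the 8 arrays alone (0.119). EXGT-A3, another xyloglucan enzyme gene, was at 0.71 (SE 0.17, adjusted p = 0.01, and 0.124 with run as a block).

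**Figure D3:**
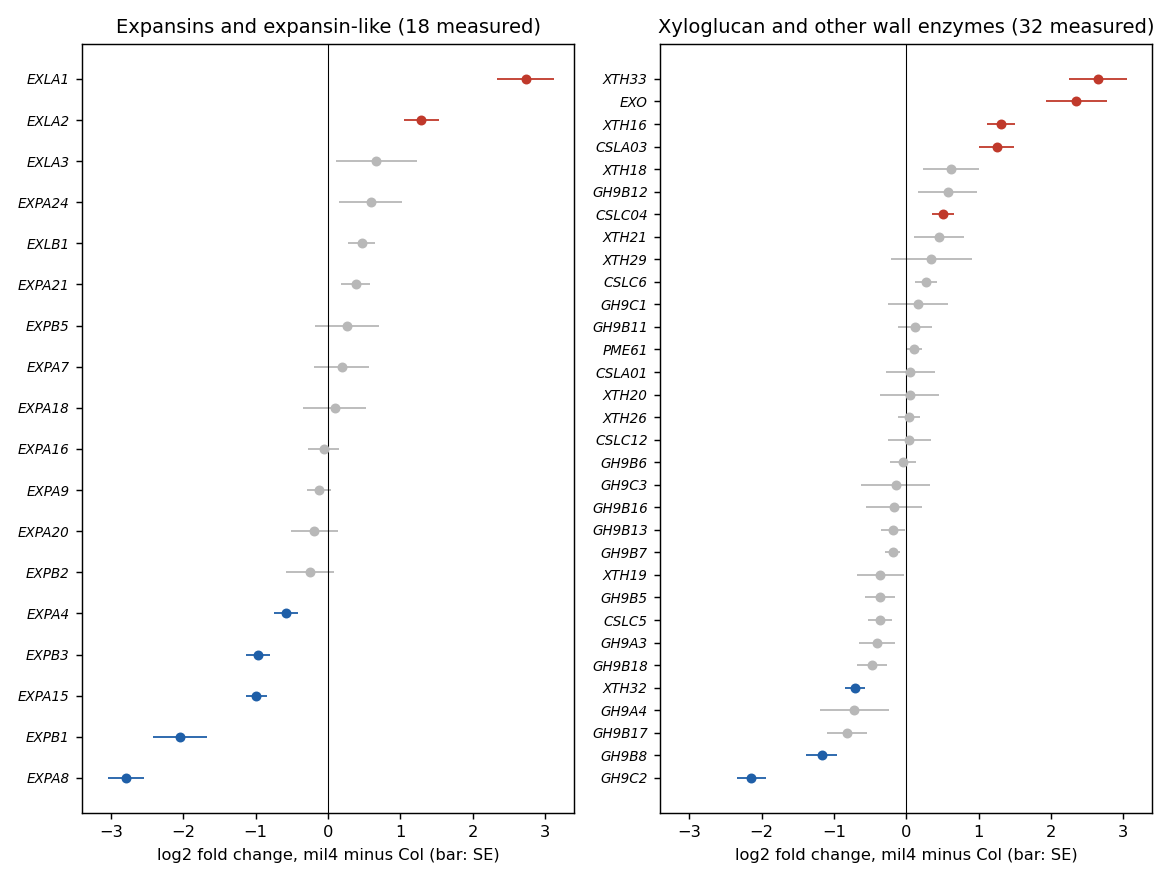
Log2 fold change, mil4 minus Col with water, of the 18 measured expansin genes (left) and the 32 measured xyloglucan and other wall enzyme genes (right), with bars of 1 SE. Blue and red genes passed an adjusted p of 0.05, and they lie on both sides of 0 in each panel, from -2.79 (EXPA8) to 2.73 (EXLA1).

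COR27, a cold-induced gene that is also driven by the circadian clock, was higher in mil4. It read 13.0, 41.2, 38.4 and 5.4 in Col, at or near background, and 251.8, 300.5, 283.6 and 276.1 in mil4. The log2 fold change of 2.98 (SE 0.27, adjusted p = 4.11e-07) ran from 1.97 to 3.83 over the settings tried, with the ends given by added constants of 64 and 1. AT4G33980 read 14.8, 50.8, 55.8 and 1.8 in Col and 260.1, 183.1, 205.8 and 101.9 in mil4 (2.27, SE 0.39, adjusted p = 0.000491), with a range of 1.41 to 3.23 over the settings. GI (GIGANTEA), a clock gene expressed late in the day, was higher by a small step, at 1608.0 to 2090.5 against 1305.3 to 1533.1 (0.42, SE 0.10, adjusted p = 0.0129). GI missed the threshold with run as a block (0.313) and in the fit of the 8 arrays alone (0.125). Of 44 clock genes 3 were measured, and COR27 and GI were the 2 to pass, where 7.84% of all loci with a symbol did. FIO1, the other measured gene, was at 0.02. So few genes do not show a change of the clock as a whole. The hour of collection was not stated in the sources used here.

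The cold genes did not move together. COR47, a dehydrin gene, was at 0.59 (SE 0.17, adjusted p = 0.034) with overlapping groups, a call lost on leaving out 7 of the 8 arrays singly, mil4 replicate 4 (0.0981) and Col replicates 1 (0.126), 2 (0.0579) and 4 (0.129) among them, with mil4 replicates 1 to 3 at 0.0539, 0.0566 and 0.0683. COR15A, which encodes a chloroplast protein that protects membranes in frost, was at -0.98 (adjusted p = 0.213), and COR15B at -0.27 (adjusted p = 0.62). AFR, an F-box gene of far-red light signalling, was lower, reading 318.2, 338.5, 356.6 and 472.0 in Col and 79.7, 143.7, 129.8 and 109.3 in mil4. No AFR array overlapped (-1.57, SE 0.19, adjusted p = 1.63e-05), but the gene was chosen after its values were seen.

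Some genes of breakdown and energy were higher in mil4. Of 4 measured nitrogen and amino acid genes 2 passed, both higher, where 3.21% of all loci with a symbol were. MCCA, which encodes a subunit of methylcrotonyl-CoA carboxylase, an enzyme of leucine breakdown, read 357.8, 461.4, 512.0 and 373.6 in Col and 1395.2, 1220.2, 1300.3 and 1031.8 in mil4. Every mil4 array was well above every Col array (1.51, SE 0.17, adjusted p = 6.63e-06). MCCB, the other subunit, was at 0.42 (SE 0.10, adjusted p = 0.0152), lost without Col replicate 4 (0.06) or mil4 replicate 4 (0.0528) and with run as a block (0.0815). IVD, which acts 1 step earlier in the same pathway, was at -0.05 (adjusted p = 0.938). ALDH6B2, a dehydrogenase gene of valine breakdown, was at 0.49 (SE 0.09, adjusted p = 0.000937, and 0.128 with run as a block).

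ATG8E, whose product decorates the membranes of autophagy, read 792.2, 758.5, 468.7 and 426.4 in Col and 1554.8, 1535.3, 1138.7 and 1939.0 in mil4. Its groups were apart (1.34, SE 0.21, adjusted p = 0.000183). It was the only 1 of 10 measured autophagy genes to pass, a share near the 7.84% of all loci with a symbol. The family's median was 0.20. AKINBETA1, a subunit gene of the energy-sensing kinase SnRK1, read 2450.6 to 2746.0 in mil4 against 1171.4 to 1405.0 in Col (1.02, SE 0.13, adjusted p = 3.23e-05, and 0.0647 with run as a block). SDP1, a lipase gene of oil breakdown, was at 0.77 (SE 0.10, adjusted p = 4.14e-05). AKINBETA1 and SDP1 were chosen after their values were seen.

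Of 14 measured sugar transporter genes of the SWEET family 1 was higher and 2 were lower, where 3.21% and 4.62% of all loci with a symbol were. None of these 3 calls held with run as a block. SWEET11, which exports sucrose for loading into the phloem, read 1880.7, 1392.9, 1596.1 and 2163.7 in Col and 3418.7, 3702.2, 3475.3 and 3043.6 in mil4 (0.97, SE 0.14, adjusted p = 9.97e-05, and 0.084 with run as a block). SWEET13, of the same family, was at -0.49 (SE 0.40, adjusted p = 0.6), though its groups did not overlap (171.6 to 224.0 in mil4, 246.4 to 331.2 in Col). Its SE includes the spread of the other groups, which was wide in mil4 sid2 (SD 1.11). SWEET2, a vacuolar transporter gene, was at -0.94 (SE 0.18, adjusted p = 0.00116, and 0.0512 with run as a block). SWEET17, a vacuolar fructose transporter gene, was at -0.52 (SE 0.15, adjusted p = 0.0412), and this call held only with all arrays or without Col replicate 3: it was lost without Col replicate 1 (0.11), 2 (0.112) or 4 (0.0927), without mil4 replicate 1 (0.0797), 2 (0.0749), 3 (0.051) or 4 (0.119), and with the run block (0.339).

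The UGT family, whose enzymes attach sugars to hormones, flavonoids and phenylpropanoids, was mostly lower where it changed. Of 47 measured genes 11 were lower and 1 was higher, where 4.62% and 3.21% of all loci with a symbol were, and the family's median was -0.14. UGT71B1 read 507.9, 423.0, 546.6 and 428.6 in Col and 154.1, 204.6, 210.3 and 67.4 in mil4, with no overlap (-1.59, SE 0.30, adjusted p = 0.00121). The flavonol glycosyltransferase genes UGT78D1 and UGT78D2 were at -0.99 (SE 0.15) and -0.60 (SE 0.15), and UGT84A3, which acts on hydroxycinnamates, was at -0.86 (SE 0.15). With run as a block the adjusted p-values of these 4 genes were 0.121, 0.111, 0.176 and 0.171, and with quantile normalization that of UGT78D2 was 0.0696. UGT85A2 was the 1 higher member (0.61, SE 0.15, adjusted p = 0.0107, and 0.113 in the fit of the 8 arrays alone).

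IAGLU, an auxin glucosyltransferase gene outside that list of names, read 307.1, 184.1, 159.8 and 254.2 in Col and 45.6, 77.4, 36.8 and 63.0 in mil4 (-1.75, SE 0.26, adjusted p = 0.000108). HCT, a gene of lignin precursors, read 2680.0 to 3897.2 in Col and 1816.7 to 2266.6 in mil4 (-0.75, SE 0.15, adjusted p = 0.00291). Both were named after their values were seen, and neither gene's groups overlapped.

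Of the salicylic acid list 5 of 39 genes were measured. WRKY53, described above, was the only 1 to pass, where 7.84% of all loci with a symbol did. The other genes of the list were not read here, which does not mean that they were unchanged. GRX480, a glutaredoxin gene that salicylic acid induces, read 199.3, 192.2, 355.2 and 111.4 in Col and 80.3, 135.4, 167.0 and 155.8 in mil4. Its groups overlapped (-0.55, SE 0.27, adjusted p = 0.285). SAG101, whose protein pairs with EDS1 in immunity, was at 0.36 (SE 0.23, adjusted p = 0.461). UGT76B1, whose enzyme glycosylates salicylic acid and the immune metabolite isoleucic acid, lay between 2.5 and 38.6 on all arrays, too dim to compare (adjusted p = 0.565).

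CHI and SAL2 were picked after their values were seen, and the salicylic acid, jasmonate and defensin lists had no gene called higher. CHI, a chitinase gene, read 472.5, 470.4, 503.4 and 182.1 in Col and 783.7, 1717.6, 690.3 and 1761.7 in mil4. All mil4 arrays were above all Col arrays (1.54, SE 0.35, adjusted p = 0.00717), but the mil4 arrays fell into a bright and a dim pair, and the adjusted p was 0.0896 in the fit of the 8 arrays alone and 0.096 with run as a block. The bright pair, replicates 2 and 4, was on fluidics module 3 and the dim pair on module 1. In Col only replicate 4 was on module 3, and it was the dimmest. A part of the module in this split was not tested. AT2G44240 read 5.3, 42.5, 54.0 and 7.4 in Col and 170.7, 171.0, 350.8 and 636.6 in mil4 (3.0, SE 0.49, adjusted p = 0.000359), with a range of 2.00 to 3.92 over the settings. SAL2, a bisphosphate nucleotidase gene, was at 1.17 (SE 0.30, adjusted p = 0.017) with overlapping groups, and lost its call without Col replicate 1 (0.0519) or 4 (0.0786) or mil4 replicate 2 (0.05005) or 4 (0.0669), with the run block (0.0813) and in the fit of the 8 arrays alone (0.149).

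No measured jasmonate gene passed, of 8 with a median of 0.22, where 7.84% of all loci with a symbol did. PDF1.2 encodes a defensin and answers to jasmonate. It read 2535.4, 410.5, 464.5 and 333.7 in Col and 311.1, 1862.1, 300.6 and 3963.7 in mil4. In Col 1 array, and in mil4 2 arrays, were far above the others, and the difference of 0.52 had an SE of 0.84 (adjusted p = 0.835). The 2 mil4 arrays, replicates 2 and 4, were also the bright pair of CHI. THI2.1, a thionin gene, was at 0.09 (adjusted p = 0.943).

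Several other lists had no call in limma: 0 of 35 measured genes of the photosystems and light harvesting (median -0.24), 0 of 20 beta-glucosidases, 0 of 15 ribosomal proteins and 0 of 24 ubiquitin-conjugating and deubiquitinating enzymes. The photosystem list holds 73 genes and the ribosomal list 85, so most ribosomal genes were not read. The measured members with the largest differences (psbC, psbD, psbE and psaA, and rpl33, rpl20, rpl14 and rps15) are genes of the chloroplast genome. These counts do not show that nuclear genes of either kind were unchanged. Markers of other cells were few. FMA (FAMA) and SPCH, genes of guard cell formation, differed by -0.10 (adjusted p = 0.801) and -0.15 (adjusted p = 0.867). MUTE, of the same list, was at 0.53 but too dim to compare, reading 2 to 35.4 in Col and 5.7 to 32.3 in mil4. Over all 51 lists with a measured gene, 62 of 547 genes passed, 11.3%, where 7.84% of all loci with a symbol and 6.05% of all 13355 named loci did. The lists were chosen with earlier results of these arrays known, so the larger share is a description of the choice as well. With run as a block 25 passed and in the fit of the 8 arrays alone 41.

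Among genes known here by locus number alone were some of the largest differences. AT2G15020 read 246.4, 372.0, 346.6 and 392.3 in Col and 2.4, 3.9, 1.8 and 9.8 in mil4, all mil4 values being at background, and its log2 fold change of -4.11 was -6.14 with an added constant of 1 and -2.54 with 64. AT3G19030 read 2888.7, 2409.3, 2869.2 and 2034.7 in Col and 485.7, 626.5, 516.7 and 506.2 in mil4 (-2.22, SE 0.19, adjusted p = 1.92e-07). AT4G29780 read 1095.3, 1159.5, 817.6 and 1025.0 in Col and 153.8, 218.0, 135.7 and 207.9 in mil4 (-2.43, SE 0.20, adjusted p = 1.92e-07). In each of these genes the groups were far apart. AT1G04770 (-2.62), AT1G72920 (-2.47), AT3G14200 (-2.32), AT1G64500 (-2.25), AT4G27657 (-2.22, dim in mil4 and -3.12 to -1.29 over the settings), AT1G76240 (-2.13) and AT1G78070 (-2.13) were lower in the same way.

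On the other side, AT4G16563 read 55.1, 62.5, 62.6 and 69.1 in Col and 733.2, 887.3, 1102.2 and 926.8 in mil4 (3.56, SE 0.35, adjusted p = 9.18e-07). AT3G59350 read 340.1, 572.3, 936.2 and 278.5 in Col and 3209.5, 3488.1, 3035.3 and 3556.5 in mil4 (2.76, SE 0.33, adjusted p = 1.12e-05). AT3G15630 read 1725.7, 1307.4, 1753.3 and 1053.2 in Col and 5019.5, 4822.0, 5509.7 and 5751.6 in mil4 (1.87, SE 0.16, adjusted p = 1.92e-07). The mil4 arrays of these genes lay close together, while the Col arrays of AT3G59350 were widely spread. AT1G50040 (2.70), AT1G72790 (1.94), AT1G11380 (1.93), AT4G37220 (1.91) and AT1G02660 (1.80) were higher too, and AT4G37220 missed the threshold with run as a block (adjusted p = 0.165).

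The same mutation was compared on other arrays of the study, which share no array with the comparison above. With BTH, 748 probe sets differed between mil4 and Col (3.29%). Of the 1684, 84.1% had the same direction there, where 58.7% of all probe sets did, and 314 passed in the same direction (18.6% of the 1684 and 42.0% of the 748). With BTH the higher probe sets had a median of 0.25 and the lower ones of -0.32. Their medians with water (0.79 and -0.75) came from the arrays that chose them, so the sizes are not compared. The BTH arrays of a genotype were hybridized in the same runs as its water arrays, so a run could enter both differences, which was not tested.

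Among the genes above, EXPA8 (-1.68, adjusted p = 0.000611), AT3G19030 (-1.30, adjusted p = 0.000434), COR27 (2.17, adjusted p = 0.000186) and MCCA (0.80, adjusted p = 0.0103) differed in the same direction with BTH. STZ (0.16, adjusted p = 0.876), WRKY53 (-0.07, adjusted p = 0.94), EXO (-0.26, adjusted p = 0.866) and THE1 (0.22, adjusted p = 0.678) were near 0. The difference between the water and BTH values was itself tested as an interaction, which 229 probe sets passed (1.01%), 181 of them among the 1684. It uses the 8 water arrays again with the sign turned, and most genes named here were chosen on those arrays, so a sign opposite to the water difference follows in part from the choice and supports nothing. ORA47 (3.38, SE 0.44, adjusted p = 0.000323), STZ (2.90, SE 0.40, adjusted p = 0.000667), WRKY53 (1.98, SE 0.33, adjusted p = 0.00275) and EXO (-2.61, SE 0.60, adjusted p = 0.0381) passed it, and EXPA8 (1.11, adjusted p = 0.182), COR27 (-0.81, adjusted p = 0.49) and MCCA (-0.71, adjusted p = 0.236) did not.

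The pair of mil4 sid2 and sid2, both with water, also shares no array with the comparison above. Between mil4 sid2 and sid2 with water 107 probe sets passed (0.47%). Of the 1684, 38.5% had the same direction there, against 47.7% of all probe sets, and 14 passed in the same and 37 in the opposite direction. EXPA8 was higher in mil4 sid2 than in sid2 (1.36, SE 0.25, adjusted p = 0.0158), opposite to its difference in plants with SID2. ORA47 (-0.61, adjusted p = 0.489), STZ (0.02, adjusted p = 0.993), WRKY53 (0.69, adjusted p = 0.223) and EXLA1 (-1.61, adjusted p = 0.0779) did not pass. The difference between the backgrounds passed the interaction test for 1210 probe sets (5.32%), 949 of them among the 1684, whose water arrays it uses again, and for 1096 without sid2 replicate 1, whose share of values under 16 (9.61%) was the lowest of all arrays. The arrays of sid2 and mil4 sid2 were all hybridized on day 4, on which no Col or mil4 array ran, so background and day cannot be told apart in a level.

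The levels show where Col with water lay. ORA47 averaged 11.25 ± 0.36 (SD, n = 4) on the log2 scale in Col with water and 6.78 ± 0.32 in mil4 with water, while sid2 was at 7.68 ± 0.36, mil4 sid2 at 7.08 ± 0.21, Col with BTH at 7.73 ± 0.85 and mil4 with BTH at 6.64 ± 0.38. Col with water thus stood above the other 5 groups, whose arrays overlapped in part. EXLA1 averaged 9.80 ± 0.67 in Col with water and 12.53 ± 0.26 in mil4, with sid2 at 12.07 ± 0.30 and mil4 sid2 at 10.45 ± 0.38. WRKY53 averaged 9.66 ± 0.33 in Col and 7.61 ± 0.18 in mil4 with water, 7.57 ± 0.21 in sid2 and 8.26 ± 0.17 in mil4 sid2, but 10.53 ± 0.52 in Col and 10.46 ± 0.45 in mil4 with BTH. MCCA was highest in the sid2 groups, at 11.16 ± 0.13 in sid2 and 10.94 ± 0.17 in mil4 sid2, above mil4 with water (10.28 ± 0.18) and Col with water (8.77 ± 0.24).

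**Figure D4:**
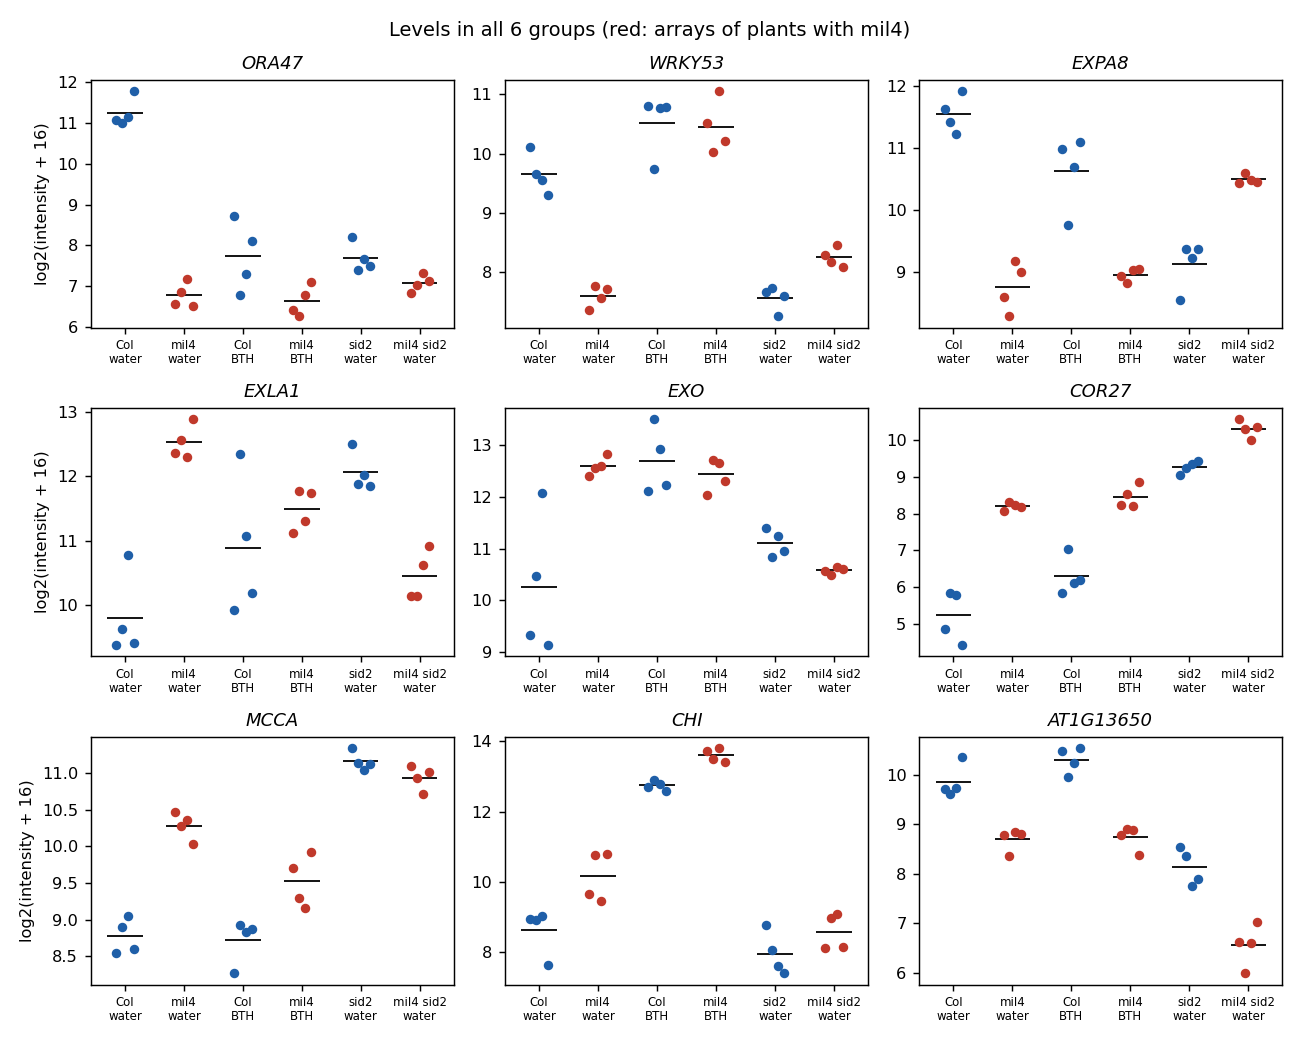
Log2(intensity + 16) of 9 genes on the 4 arrays of each of the 6 groups, with a line at the group mean and with plants that carry mil4 in red. ORA47 is high in Col with water alone, at 11.25, and AT1G13650 is lower with mil4 than without it in each of the 3 pairs.

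In all 3 pairs 16 probe sets passed. Of these, 9 differed in 1 direction throughout, 7 lower and 2 higher with mil4. The rest, EXPA8 among them, had the same direction with water and with BTH and the opposite one in sid2 plants. Of the 9, 2 have a gene name, both of these chosen after their values were seen. AT1G13650 read 818.4, 760.2, 829.6 and 1292.1 in Col and 420.6, 312.2, 445.0 and 432.3 in mil4 with water. Its log2 fold change was -1.15 (SE 0.22, adjusted p = 0.00167, and 0.0518 with run as a block), with -1.57 (adjusted p = 0.000398) with BTH and -1.58 (adjusted p = 0.00256) in sid2 plants. AT1G73600 read 4446.7, 5926.0, 5366.2 and 7235.1 in Col and 2469.6, 2684.6, 1742.7 and 3342.1 in mil4, and its groups were apart. Its log2 fold changes were -1.18 (SE 0.22, adjusted p = 0.000996), -1.59 (adjusted p = 0.000261) and -0.98 (adjusted p = 0.0434).

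**Figure D5:**
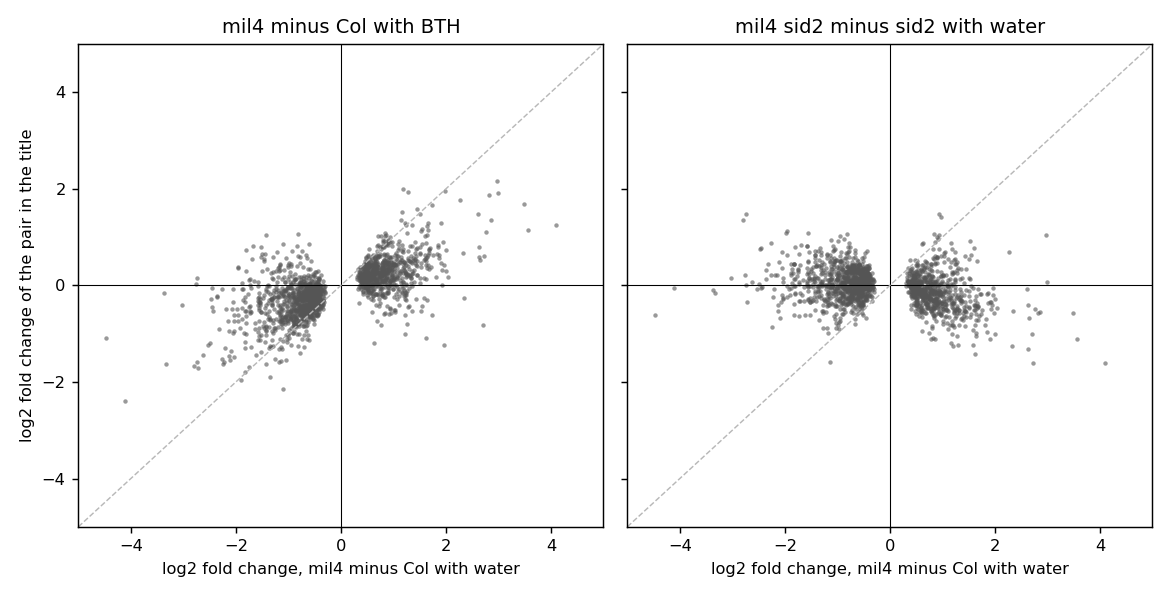
Each point is 1 of the 1684 probe sets that passed with water, with its log2 fold change there on the horizontal axis and that of mil4 minus Col with BTH (left) or of mil4 sid2 minus sid2 (right) on the vertical axis, around a dashed line of equal values. With BTH 84.1% of the points share the sign, and in sid2 plants 38.5% do.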

How the data were processed

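RNA of 24 rosette samples was measured on Affymetrix ATH1 arrays. Trizol RNA was used, 15 µg per labelling of biotinylated cRNA, per the labels' protocols. The values deposited by the authors are linear probe-set intensities, each array scaled to a 2% trimmed mean of 500 to 500.1, as read from the values. Their software was not given in the sources used here. Such scaling assumes alike total signal, and dim values hold mostly background.

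The 64 control probe sets were left out. The rest were analysed as log2(intensity + 16) with limma 3.58.1 in R 4.3.3 (1 mean per group over 24 arrays, contrasts.fit, eBayes, 2-sided), with Benjamini-Hochberg adjustment over 22746 probe sets at 0.05. The 4 arrays per group limit the precision. The fit was tested on simulated data. Of the probe sets, 13513 have 1 gene in the platform annotation, 503 several and 8730 none, and 13436 matched RefSeq (TAIR10.1). The brightest probe set stood for each of 147 loci with several. Day (4) and fluidics module (4), per the file headers, and run (8) were tried as blocks. The headers name no run: arrays whose hybridization times lay within minutes of each other were taken as 1 run. Other alternatives were the added constant, quantile normalization, array weights, an intensity trend, brighter probe sets, probe sets with a plain suffix, the replicate number as a block, the groups of a contrast alone, and leaving out each array.

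Named were the 14 largest rises and falls with 1 gene name, no overlap and a mean of at least 7 in the higher group, up to 4 genes of each list with the largest differences, and all passing members of the stress, clock, wall and salicylic acid lists. The text describes part of these, and 18 of 90 genes lie outside the rule. Of the 57 gene lists, 16 family lists were added after the files were seen, and the members and all lists were chosen with earlier results of these data known. Figures were drawn with Python 3.11.15 and matplotlib 3.10.9.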

Additional observations from a re-analysis of the deposited data

Results flagged for a closer look

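The effect of mil4 with water differed from its effect with BTH, by the interaction test in limma, for 17 of the 90 genes described, where 1.01% of all probe sets passed. The value is the log2 fold change with BTH minus that with water. Most of the 90 genes were chosen for their water difference, which enters with its sign turned, so the count and the opposite signs follow in part from the choice, here and for sid2 below. It was above 0 for 8 genes that were lower in mil4 with water: ORA47 (3.38), STZ (2.90), AT1G72920 (2.18), WRKY53 (1.98), AT4G29780 (1.90), the auxin glucosyltransferase gene IAGLU (1.86), the endoglucanase gene GH9C2 (1.41) and AT1G78070 (1.18). It was below 0 for 9 genes that were higher in mil4 with water: AT1G50040 (-3.52), EXO (-2.61), AT4G16563 (-2.41), AT1G11380 (-1.91), AT1G02660 (-1.64), AT3G15630 (-1.29), the wall receptor gene THE1 (-1.23), AKINBETA1 (-0.90) and SDP1 (-0.81). Adjusted p-values ran from 0.000323 to 0.0466. Replicate 2 of Col with BTH stood apart for several of the genes below 0. It read 565.7 for AT4G16563 (75.3 to 229.5 on the other arrays of its group) and 891.6 for AT1G11380 (284.9 to 400.7). For EXO it read 11551.4 (4390.9 to 7770.2) and for THE1 1522.6 (652.4 to 1045.3). It was not the highest for AT3G15630, AKINBETA1 and SDP1. Without this array 156 probe sets passed the interaction, against 229 with it.

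The effect in plants with SID2 differed from that in sid2 plants for 55 of the 90 genes, by the interaction of mil4 with sid2 (5.32% of all probe sets), given as the log2 fold change in sid2 plants minus that in plants with SID2. Above 0 were 27 genes. Stress and ligase genes among them were ORA47 (3.86), STZ (2.75), WRKY53 (2.74), PUB25 (1.83), PUB26 (1.37) and PUB24 (0.87). Wall genes were EXPA8 (4.15), GH9C2 (2.36), GH9B8 (1.28), EXPA15 (1.14), EXPB3 (0.92) and EXPA4 (0.88). Glycosyltransferase and signalling genes were UGT71B1 (2.40), IAGLU (2.03), AFR (1.45), UGT78D1 (1.01) and GLR3.5 (0.98). Genes with a locus number alone were AT2G15020 (4.07, with mil4 at background, so the size depends on the added constant), AT1G72920 (3.23), AT3G14200 (2.77), AT1G04770 (2.68), AT4G29780 (2.40), AT3G19030 (2.14), AT4G27657 (1.98), AT1G76240 (1.72), AT1G78070 (1.60) and AT1G64500 (1.38). Below 0 were 28 genes. Wall genes among them were EXLA1 (-4.34), XTH33 (-3.32), EXO (-2.88), RALFL22 (-1.96), CSLA03 (-1.89), THE1 (-1.88), XTH16 (-1.87), EXLA2 (-1.75) and EXGT-A3 (-0.92). Clock, cold and energy genes were COR27 (-1.94), MCCA (-1.73), ATG8E (-1.57), COR47 (-1.07), AKINBETA1 (-1.06), SDP1 (-1.05), SWEET11 (-0.77) and MCCB (-0.56), with UGT85A2 (-0.93) and ATL8 (-0.83) beside them. Genes with a locus number alone were AT4G16563 (-4.67), AT1G50040 (-3.71), AT3G59350 (-3.24), AT4G37220 (-3.02), AT2G44240 (-2.93), AT1G02660 (-2.62), AT1G11380 (-2.42), AT1G72790 (-2.34) and AT3G15630 (-2.02).

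Of 180 groups of 4 arrays looked at (90 genes in Col and in mil4 with water), 10 held an array whose gap to the others was large for the group's range, where chance gives about 1 in 20. In Col these were PDF1.2 on replicate 1 (2535.4), AT4G37220 on replicate 2 (8.9), CHI on replicate 4 (182.1) and AT1G13650 on replicate 4 (1292.1). In mil4 they were UGT78D2 on replicate 1 (252.5), AT1G13650 on replicate 2 (312.2), AT1G72920 on replicate 3 (22.6), SAG101 on replicate 3 (123.8), HCT on replicate 3 (2266.6) and SPCH on replicate 4 (65.9).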

How the results depend on the processing

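Over the 12 other settings the number of probe sets that differed between mil4 and Col with water ran from 680 to 1935, and from 1312 to 1612 when 1 of the 8 arrays was left out. It was 680 with run as a block and 956 in the fit of the 8 arrays alone, where 550 and 882 of the 1684 remained, against 1669 with the replicate number as a block. Deviations of same-numbered arrays correlated at -0.11, 0.05, 0.20 and -0.02 over 12809 probe sets, so the numbers were not taken as pairs. The interaction with BTH, 229 probe sets, gave 115 in the fit of its groups alone, 350 with array weights and 367 with an intensity trend. It gave 362 with a constant of 64 and 389 among brighter probe sets. With single arrays left out it gave 149 to 292, with 149 without mil4 BTH replicate 3 and 156 without Col BTH replicate 2. The interaction with sid2, 1210, gave 660 with run as a block and 1016 to 1211 with single arrays left out. List genes past the threshold, 62, numbered 25 with run as a block, 41 in the fit of the 8 arrays alone and 48 to 59 with single arrays left out. For the 90 genes described, no setting turned a direction that had passed. Of 74 that passed, 89 of 1470 values under other settings fell below the threshold, and with run as a block 30 of the 74 did. In the fit of the 8 arrays alone the adjusted p was also above it for MCCB (0.113), EXPA4 (0.187), SWEET17 (0.0765) and COR47 (0.161). Arrays do not separate probe sets near background, and 88 of the 1684 had a mean under 7 in both groups.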

Other observations

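Of the glutamate receptor-like family 1 gene was higher and 1 lower, where 3.21% and 4.62% of all loci with a symbol were. Among 7 measured glutamate receptor-like channel genes, GLR1.4 read 132.3, 108.2, 94.8 and 103.0 in Col and 252.5, 216.2, 176.4 and 280.4 in mil4 (log2 fold change 0.97, SE 0.14, limma adjusted p = 0.000129). GLR3.5 read 168.0, 150.7, 198.2 and 136.7 in Col and 111.9, 71.0, 63.6 and 93.2 in mil4 (-0.84, SE 0.19, adjusted p = 0.00746, and 0.0775 with run as a block). The groups of neither gene overlapped, and the genes differed in opposite directions.

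Glutathione transferases attach glutathione to toxins and hormones. Of 14 measured genes 2 were lower and none was higher, where 4.62% and 3.21% of all loci with a symbol were. The family's median was -0.05, and neither call held with run as a block. GSTU16 read 462.3 to 587.0 in Col and 209.5 to 289.0 in mil4 (-0.92, SE 0.14, adjusted p = 0.000236, and 0.0752 with run as a block). GSTU18 read 1500.4 to 1668.0 in Col and 1026.0 to 1340.8 in mil4 (-0.47, SE 0.09, adjusted p = 0.0022), with 0.298 with run as a block and 0.0771 in the fit of the 8 arrays alone.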
